A study of Homo sapiens with 12 samples.

Results

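Androgen-repressed genes are genes whose transcripts are known to fall when androgen acts on prostate cancer cells. The set described here was chosen by name: OPRK1, BCHE, DDC, ACKR3, PEG3, CAMK2N1, SESN3, MET, TBC1D4 and LIN7A. Of these 10 genes, 9 had a named row on the array, among 17687 genes with a named row in all, and PEG3, an imprinted zinc finger gene, is not analysed here. Each of the 9 had a single row, so no choice between rows was needed.

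RNA was profiled in LNCaPabl-Enza and LNCaPabl-Abi, sublines whose name comes from LNCaP, a long-established cell line from a human prostate cancer. What Abi and Enza stand for is not spelled out in the labels, and the sources used here do not give how the sublines were derived or from how many clones. The 4 groups, of 3 arrays each, were Enza_Dex (LNCaPabl-Enza with 100 nM dexamethasone for 24 h), Enza_Ctrl (LNCaPabl-Enza with the vehicle DMSO for 24 h), Abi_Dex (LNCaPabl-Abi with the same dexamethasone) and Abi_Ctrl (LNCaPabl-Abi with DMSO). Both lines were grown in RPMI medium with fetal calf serum, and the labels mention neither added androgen nor removal of steroids from the serum. The series asks how the glucocorticoid receptor changes expression in these lines.

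Androgens switch many genes on in prostate cells, KLK3 being the best known. At other genes androgen signalling lowers transcription, with help from corepressors such as histone demethylases and histone deacetylases, and blocking that signalling lets such genes rise. Dexamethasone is a synthetic ligand of the glucocorticoid receptor, a steroid-activated transcription factor whose DNA element is nearly the same as the one used in androgen signalling, and which can take over part of the androgen target genes in prostate cancer cells that resist antiandrogens. Whether the glucocorticoid receptor also lowers androgen-repressed genes is the question that the comparison of dexamethasone with DMSO addresses for these members.

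No member changed with dexamethasone in either line by the test used. Between the lines, no member passed in the fit of all 12 arrays. Without Enza_Ctrl replicate 2, ACKR3 was lower in LNCaPabl-Enza with DMSO and with dexamethasone, and BCHE and DDC were higher there with dexamethasone but did not pass with DMSO. Whole cultures were measured, so fewer cells with a transcript and less of it per cell cannot be told apart. Enza_Ctrl replicate 2 stood apart from the rest. Its median Pearson r with the other arrays over all genes was 0.855, against 0.986 to 0.99 for the other 11, and its 23 background probe sets averaged 5.50 on the log2 scale, against 4.50 to 4.60. Over all genes, the median residual SD was 0.43 with all 12 arrays and 0.258 with 11. Calls are therefore given for 12 arrays and for the 11 without it. The 6 measured markers of luminal prostate epithelium had group means between 6.86 and 14.38, among them the keratin KRT8 (13.64 to 14.63 over all arrays) and the adhesion molecule EPCAM (13.35 to 14.24). Group means of the 2 measured basal markers lay between 2.68 and 4.52, those of the 6 neuroendocrine markers between 3.34 and 6.43, those of the 3 endothelial markers between 3.51 and 5.62, those of the 3 immune markers between 4.26 and 7.72 and those of the 6 fibroblast markers between 3.64 and 8.07.

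The promoters of BCHE and DDC are shown because these 2 genes have RefSeq windows here and were called between the treated lines without Enza_Ctrl replicate 2. Each run is the 250 bases before an annotated transcription start in GRCh38.p14, 5′ to 3′ on the gene's own strand, which is the minus strand for both genes. No letters are in capitals because none of the motifs searched was found.
BCHE, chr3:165837424-165837673: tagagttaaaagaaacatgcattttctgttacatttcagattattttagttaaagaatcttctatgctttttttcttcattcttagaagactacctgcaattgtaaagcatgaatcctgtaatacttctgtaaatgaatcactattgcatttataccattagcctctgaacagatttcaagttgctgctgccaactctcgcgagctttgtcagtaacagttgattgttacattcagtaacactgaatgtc
DDC start 1, chr7:50565406-50565655: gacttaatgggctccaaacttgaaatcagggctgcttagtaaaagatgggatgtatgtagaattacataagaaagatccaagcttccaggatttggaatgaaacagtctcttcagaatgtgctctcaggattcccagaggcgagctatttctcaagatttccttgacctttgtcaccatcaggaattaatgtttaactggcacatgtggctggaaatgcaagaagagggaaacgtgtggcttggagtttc
DDC start 2, chr7:50561072-50561321: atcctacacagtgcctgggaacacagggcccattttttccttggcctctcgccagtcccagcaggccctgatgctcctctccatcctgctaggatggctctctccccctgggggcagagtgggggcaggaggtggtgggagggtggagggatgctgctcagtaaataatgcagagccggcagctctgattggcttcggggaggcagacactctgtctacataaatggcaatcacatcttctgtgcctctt
The BCHE window was poor in G and C (33.2%), as was the first DDC window (42.4%), while the second DDC window held 58.0%. RefSeq windows were used for 5 of the 9 measured members, 7 windows in all, the others being those of SESN3, MET and LIN7A. AGAACA, a half-site bound by steroid receptors such as the glucocorticoid receptor, was found on neither strand of any of the 7, against 4350 of 35116 windows of the same length (12.4%). TGTTTAC, the forkhead core bound by FOXA1, was in none of the 7, against 1046 windows (2.98%). An inverted repeat of 2 half-sites with a gap of 3 bases, whose parts are counted as half-sites too, was in none of the 7 and in 1 of the 35116. These are statements about letters in short windows, not about binding.

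All levels below are the deposited log2 values, listed for replicates 1, 2 and 3 in that order. A probe set's level depends on its probes, so levels are not compared between genes, and each gene's place among all genes is given only as a rough guide to how far it stood above background. CAMK2N1 and ACKR3 had mean levels at percentiles 99.8 and 99.1 of all genes and SESN3 at 88.7. DDC lay at 59.4, TBC1D4 at 56.5, LIN7A at 51.4, OPRK1 at 48.2 and BCHE at 46.8. MET lay at 21.7, and its lowest and highest values, 3.46 and 4.71, spanned the background probe sets' average.

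**Figure D1:**
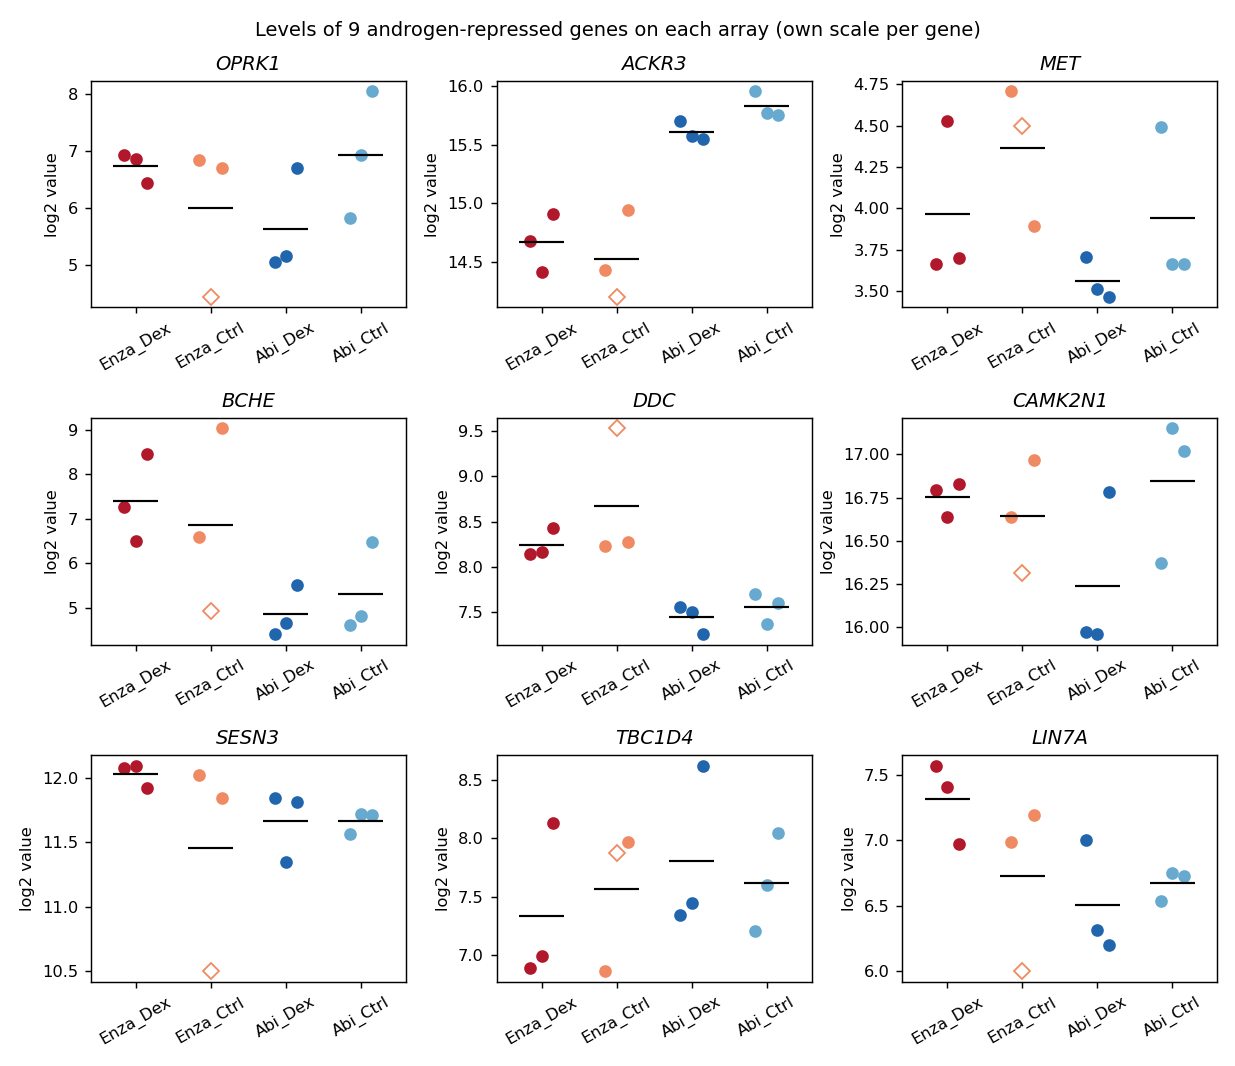
Deposited log2 level of each of the 9 measured androgen-repressed genes on every array, by group, with bars at group means (n = 3 arrays) and an open diamond for Enza_Ctrl replicate 2. ACKR3 is lower and DDC higher on every LNCaPabl-Enza array than on any LNCaPabl-Abi array, and the open diamond is the lowest point of its group for OPRK1, BCHE, ACKR3, CAMK2N1, SESN3 and LIN7A and the highest for DDC.

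Of the 3 cell surface receptors, OPRK1 encodes the kappa opioid receptor, a G protein-coupled receptor for dynorphin peptides. OPRK1 stood at 6.94, 6.86 and 6.43 in Enza_Dex, 6.85, 4.44 and 6.71 in Enza_Ctrl, 5.05, 5.16 and 6.71 in Abi_Dex and 5.82, 6.93 and 8.05 in Abi_Ctrl. Apart from Enza_Ctrl replicate 2, its LNCaPabl-Enza arrays lay close together, while the Abi_Dex and Abi_Ctrl arrays were spread widely and overlapped. In LNCaPabl-Abi the difference with dexamethasone was −1.29 ± 0.71 (SE, 12 arrays), the lowest of the 9 members, with a limma adjusted p of 1.00. Without Enza_Ctrl replicate 2, which enters this contrast only through the shared estimate of the spread, the SE was 0.47, the 95% interval −2.29 to −0.30 and the adjusted p 0.598. In LNCaPabl-Enza the difference was 0.74 ± 0.71 with 12 arrays and −0.03 ± 0.52 with 11. PDYN, which encodes the dynorphin precursor, had group means between 3.44 and 4.002.

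ACKR3 encodes an atypical chemokine receptor that binds CXCL12 and recruits arrestin rather than signalling through G proteins. ACKR3 stood at 14.68, 14.41 and 14.91 in Enza_Dex, 14.43, 14.20 and 14.94 in Enza_Ctrl, 15.70, 15.58 and 15.55 in Abi_Dex and 15.96, 15.78 and 15.75 in Abi_Ctrl. All Abi_Dex arrays were below all Abi_Ctrl arrays, by a small margin, whereas the Enza_Dex and Enza_Ctrl arrays overlapped. The difference with dexamethasone was −0.22 ± 0.24 in LNCaPabl-Abi (limma adjusted p = 1.00) and 0.15 ± 0.24 in LNCaPabl-Enza (adjusted p = 0.725). With 11 arrays these were −0.22 ± 0.19 (adjusted p = 0.828) and −0.02 ± 0.21 (adjusted p = 1.00).

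The receptor tyrosine kinase MET binds hepatocyte growth factor and drives cell motility and growth. MET stood at 3.67, 4.53 and 3.70 in Enza_Dex, 4.71, 4.50 and 3.89 in Enza_Ctrl, 3.71, 3.51 and 3.46 in Abi_Dex and 4.49, 3.66 and 3.66 in Abi_Ctrl. These values were close to or below the average of the background probe sets, and the groups overlapped. Its difference with dexamethasone was −0.40 ± 0.33 in LNCaPabl-Enza and −0.38 ± 0.33 in LNCaPabl-Abi, and neither passed.

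The 2 enzymes were BCHE and DDC. BCHE encodes butyrylcholinesterase, which hydrolyses choline esters, and it stood at 7.26, 6.51 and 8.46 in Enza_Dex, 6.60, 4.94 and 9.03 in Enza_Ctrl, 4.40, 4.66 and 5.50 in Abi_Dex and 4.62, 4.82 and 6.47 in Abi_Ctrl. The LNCaPabl-Enza arrays were the higher ones except for Enza_Ctrl replicate 2, and the third replicate was the highest in all 4 groups. Its difference with dexamethasone was 0.55 ± 0.90 in LNCaPabl-Enza with 12 arrays and −0.41 ± 0.68 with 11, and −0.45 ± 0.90 in LNCaPabl-Abi with 12 arrays. The intervals of BCHE were the widest of the members.

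DDC encodes aromatic L-amino acid decarboxylase, which makes dopamine and serotonin. DDC stood at 8.15, 8.17 and 8.43 in Enza_Dex, 8.23, 9.53 and 8.27 in Enza_Ctrl, 7.56, 7.51 and 7.26 in Abi_Dex and 7.71, 7.38 and 7.61 in Abi_Ctrl. Within each line the groups overlapped, and Enza_Ctrl replicate 2 was the highest array of all. Its difference with dexamethasone was −0.43 ± 0.32 in LNCaPabl-Enza with 12 arrays and −0.01 ± 0.20 with 11, where the 95% interval was −0.42 to 0.41. In LNCaPabl-Abi it was −0.12 ± 0.17 with 11 arrays, with an interval of −0.49 to 0.25.

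The other 4 measured members act inside the cell. CAMK2N1, an inhibitor protein of the calcium/calmodulin-dependent kinase CaMKII, stood at 16.79, 16.64 and 16.83 in Enza_Dex, 16.64, 16.32 and 16.97 in Enza_Ctrl, 15.97, 15.96 and 16.78 in Abi_Dex and 16.37, 17.15 and 17.02 in Abi_Ctrl. In LNCaPabl-Abi, 2 Abi_Dex arrays lay below every Abi_Ctrl array and the third lay within their range. The difference there was −0.61 ± 0.30 with 12 arrays (limma adjusted p = 1.00), and with 11 arrays the 95% interval was −1.14 to −0.07 (unadjusted p = 0.0282, adjusted p = 0.676). In LNCaPabl-Enza it was 0.11 ± 0.30 with 12 arrays and −0.05 ± 0.28 with 11.

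SESN3 encodes a sestrin, a FOXO-regulated restraint on the growth kinase mTORC1. SESN3 stood at 12.08, 12.10 and 11.92 in Enza_Dex, 12.02, 10.50 and 11.84 in Enza_Ctrl, 11.85, 11.35 and 11.81 in Abi_Dex and 11.57, 11.72 and 11.71 in Abi_Ctrl. Only Enza_Ctrl replicate 2 left a narrow band. The difference with dexamethasone was 0.58 ± 0.35 in LNCaPabl-Enza with 12 arrays, 0.10 ± 0.20 with 11, and 0.00 ± 0.35 in LNCaPabl-Abi.

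TBC1D4, also called AS160, is a Rab GTPase-activating protein through which insulin and AKT move glucose transporters to the cell surface. TBC1D4 stood at 6.88, 6.99 and 8.13 in Enza_Dex, 6.86, 7.88 and 7.97 in Enza_Ctrl, 7.34, 7.44 and 8.63 in Abi_Dex and 7.20, 7.60 and 8.05 in Abi_Ctrl. The third replicate was again the highest of each group, and the groups overlapped. The difference with dexamethasone was −0.23 ± 0.46 in LNCaPabl-Enza with 12 arrays, −0.08 ± 0.44 with 11, and 0.19 ± 0.46 in LNCaPabl-Abi.

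LIN7A encodes a PDZ scaffold that helps place receptors at epithelial junctions and synapses. LIN7A stood at 7.57, 7.41 and 6.97 in Enza_Dex, 6.99, 5.996 and 7.20 in Enza_Ctrl, 7.00, 6.31 and 6.20 in Abi_Dex and 6.53, 6.75 and 6.72 in Abi_Ctrl. Enza_Dex held the 2 highest arrays and Enza_Ctrl replicate 2 was the lowest. With dexamethasone it differed by 0.59 ± 0.34 in LNCaPabl-Enza with 12 arrays and 0.22 ± 0.25 with 11, and by −0.17 ± 0.34 in LNCaPabl-Abi.

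**Figure D2:**
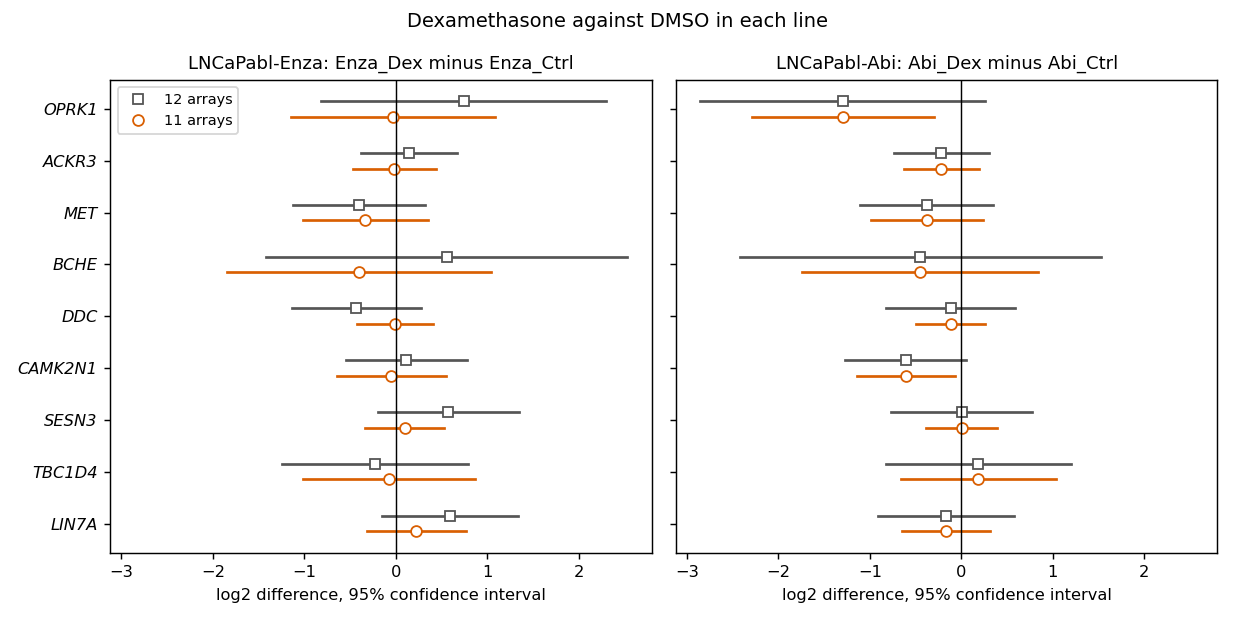
Difference in log2 level with dexamethasone (Dex minus Ctrl) for each of the 9 members in each line, with 95% intervals from limma, for 12 arrays (grey squares) and without Enza_Ctrl replicate 2 (orange circles). A filled symbol would mark an adjusted p under 0.05, and none is filled: the estimates run from −0.43 to 0.74 in LNCaPabl-Enza with 12 arrays and from −1.29 to 0.19 in LNCaPabl-Abi.

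Counted together, 0 of the 9 members were called with dexamethasone in LNCaPabl-Abi with 12 arrays (limma, adjusted p under 0.05), where 0.0283% of all genes were called, and 0 with 11 arrays, where 0.141% were. The difference was below 0 for 7 members and above 0 for 2, with a median of −0.22 against 0.00 over all genes. None had an unadjusted p under 0.05 with 12 arrays, and 2 did with 11, OPRK1 (limma, unadjusted p = 0.0145, adjusted p = 0.598) and CAMK2N1. Over all 17687 genes, 241 had such a p with 12 arrays and 1254 with 11. The groups did not overlap for 1 of the 9, ACKR3, against 12.3% of all genes. In LNCaPabl-Enza 0 of 9 were called with either set of arrays, and 0% of all genes were. With 12 arrays 6 members were above 0 and 3 below, with a median of 0.15 against 0.06 over all genes. With 11 arrays 2 were above and 7 below, with a median of −0.04 against 0.01. No member had an unadjusted p under 0.05 with either set, against 700 of 17687 genes with 12 arrays and 530 with 11. None had groups without overlap, against 8.74% of all genes with 12 arrays and 15.9% with 11. With so few calls over all genes, a count of 0 among 9 does not set the members apart. The intervals say what these arrays could leave undetected: without Enza_Ctrl replicate 2 they reached from −2.29 to 1.03 over the members in LNCaPabl-Abi, and from −1.85 to 1.08 in LNCaPabl-Enza.

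The difference between the responses (LNCaPabl-Enza minus LNCaPabl-Abi) was called for 0 of 9 members with 12 and with 11 arrays, and for 0% of all genes in both. No member had an unadjusted p under 0.05. OPRK1 had the highest estimate, 2.04 ± 1.00 with 12 arrays (limma adjusted p = 0.793) and 1.26 ± 0.70 with 11 (adjusted p = 0.999). CAMK2N1 followed among the estimates with 11 arrays, at 0.56 ± 0.37.

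The genes that androgen induces give a contrast from the same arrays. Of 13 measured androgen-induced genes, 10 were higher and 3 lower in Abi_Dex than in Abi_Ctrl, with a median difference of 0.50. KLK4, a kallikrein protease, rose by 4.73 ± 0.50 (limma adjusted p = 0.00687), and TMPRSS2, a membrane serine protease, rose by 2.19 ± 0.27 (adjusted p = 0.0167). With 11 arrays RHOU, a small GTPase, passed too (1.89 ± 0.30, adjusted p = 0.0163). In LNCaPabl-Enza 10 of the 13 were again higher with dexamethasone, with a median of 0.42 and no calls with either set of arrays. An unadjusted p under 0.05 was seen for 4 of them with 12 arrays and 5 with 11, against 700 and 530 of 17687 genes. TMPRSS2 differed there by 1.08 ± 0.27 (limma adjusted p = 0.523). The lines did not start alike: KLK4 averaged 8.03 in Enza_Ctrl and 9.58 in Enza_Dex, against 5.82 in Abi_Ctrl and 10.54 in Abi_Dex. With 11 arrays 1 of the 13 was called higher in LNCaPabl-Enza between the untreated lines, where 1.29% of all genes were called. Between the treated lines 1 was called lower, where 2.28% of all genes were called. Whether the induced and the repressed genes differ in their response was not tested.

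The untreated lines were compared next. With 12 arrays 0 of 9 members were called between Enza_Ctrl and Abi_Ctrl, where 0.266% of all genes were. The same 2 members, DDC and ACKR3, had an unadjusted p under 0.05 and groups without overlap. Of all 17687 genes, 1999 had such a p and 14.2% had such groups. With 11 arrays 3 members had an unadjusted p under 0.05, against 1956 of 17687 genes. Groups did not overlap for 5 of the 9, namely BCHE, DDC, SESN3 and LIN7A (higher) and ACKR3 (lower), against 24.0% of all genes. With 11 arrays 1 member was called, ACKR3, where 1.29% of all genes were. The median difference of the 9 was −0.05 with 12 arrays against −0.03 over all genes, and 0.27 with 11 arrays against 0.00. The treated lines share no array with this comparison, but they were compared under dexamethasone. Both tests use a shared estimate of the spread, so they are not fully independent. Between Enza_Dex and Abi_Dex, 0 of 9 members were called with 12 arrays, where 0.277% of all genes were, and 3 of 9 with 11, where 2.28% were. An unadjusted p under 0.05 was seen for 4 members with 12 arrays, against 733 of 17687 genes, and for 5 with 11, against 2039. Groups did not overlap for 4 of the 9, namely BCHE, DDC and SESN3 (higher) and ACKR3 (lower), against 20.1% of all genes. All Enza_Dex and Abi_Dex arrays entered with 11 arrays too, so the differences were the same and only their errors changed.

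ACKR3 averaged 14.52 ± 0.38 in Enza_Ctrl and 15.83 ± 0.11 in Abi_Ctrl (SD, n = 3 each). The difference was −1.31 ± 0.24 (SE), a 2.47-fold lower value in Enza_Ctrl, with a limma adjusted p of 0.0541. Without Enza_Ctrl replicate 2 it fell by 1.14 ± 0.21, a 2.21-fold lower value, with a 95% interval of −1.60 to −0.69 and an adjusted p of 0.0139. With dexamethasone in both lines it averaged 14.67 ± 0.25 in Enza_Dex and 15.61 ± 0.08 in Abi_Dex. That difference was −0.94, 1.92-fold lower, with an adjusted p of 0.245 in the fit with 12 arrays and 0.0150 with 11 (interval −1.35 to −0.53). Every LNCaPabl-Enza array was below every LNCaPabl-Abi array. When 1 more array was left out of the 11, the call between the untreated lines was lost without Enza_Ctrl replicate 1. That fit kept 1 Enza_Ctrl array and gave a difference of −0.89. The call held without each Abi_Ctrl array in turn. Leaving out an Enza_Dex or Abi_Dex array cannot change this difference, only the spread. The call between the treated lines was lost without Abi_Dex replicate 1 or 2 or Enza_Dex replicate 1 or 2 (limma, highest adjusted p 0.0916). Among the arrays that enter that difference, leaving out only Abi_Dex replicate 3 or Enza_Dex replicate 3 kept the call.

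BCHE averaged 7.41 ± 0.99 in Enza_Dex and 4.85 ± 0.57 in Abi_Dex (SD, n = 3 each), and the lowest Enza_Dex array was above the highest Abi_Dex array. The difference was 2.56, a 5.88-fold higher value on the deposited scale, with an SE of 0.90 and a limma adjusted p of 0.768 with 12 arrays, and an SE of 0.61, an interval of 1.27 to 3.85 and an adjusted p of 0.0384 with 11. In the untreated lines it averaged 6.86 ± 2.06 in Enza_Ctrl and 5.30 ± 1.02 in Abi_Ctrl, a difference of 1.55 ± 0.90 (adjusted p = 0.432) that was 2.51 ± 0.68 (adjusted p = 0.104) with 11 arrays. Because Abi_Dex values of BCHE lay near those of the background probe sets, the fold may understate how far the lines differ. With 1 more array left out of the 11, the difference between the treated lines ran from 2.03 to 3.01. The call was lost without Abi_Ctrl replicate 2, Abi_Dex replicate 1 or 2, or Enza_Dex replicate 1 or 3 (limma, highest adjusted p 0.164). Among the arrays that enter that difference, leaving out only Abi_Dex replicate 3 or Enza_Dex replicate 2 kept the call.

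DDC averaged 8.25 ± 0.16 in Enza_Dex and 7.44 ± 0.16 in Abi_Dex, and 8.68 ± 0.74 in Enza_Ctrl and 7.56 ± 0.17 in Abi_Ctrl (SD, n = 3 each). No LNCaPabl-Enza array overlapped the LNCaPabl-Abi arrays. Between the treated lines it was higher by 0.80, or 1.74-fold, with limma adjusted p-values of 1.00 with 12 arrays and 0.0233 with 11 (interval 0.43 to 1.18). Between the untreated lines the difference was 1.12 ± 0.32 with 12 arrays (adjusted p = 0.296) and 0.69 ± 0.20 with 11 (adjusted p = 0.127). Leaving out any Enza_Dex or Abi_Dex array from the 11 ended the call between the treated lines (adjusted p up to 0.109, difference 0.71 to 0.86), while leaving out any of the 5 others did not.

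Of the remaining members, LIN7A came nearest to the threshold. It averaged 7.32 ± 0.31 in Enza_Dex and 6.50 ± 0.43 in Abi_Dex, a difference of 0.81 with limma adjusted p-values of 1.00 with 12 arrays and 0.0868 with 11 (interval 0.33 to 1.30). Between Enza_Ctrl and Abi_Ctrl its difference was 0.06 ± 0.34 with 12 arrays and 0.42 ± 0.25 with 11 (adjusted p = 0.585). OPRK1 differed by 1.10 ± 0.47 between Enza_Dex and Abi_Dex with 11 arrays (adjusted p = 0.361), but by −0.16 ± 0.52 between Enza_Ctrl and Abi_Ctrl. SESN3 was higher on all Enza_Dex arrays than on any Abi_Dex array, by 0.36 ± 0.18 on average (adjusted p = 0.484). CAMK2N1 differed by 0.52 ± 0.25 between the treated lines (adjusted p = 0.460), MET by 0.40 ± 0.29 (adjusted p = 0.684) and TBC1D4 by −0.47 ± 0.40 (adjusted p = 0.761). In the untreated lines with 11 arrays the differences of these 4 lay between −0.20 for TBC1D4 and 0.36 for MET.

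**Figure D3:**
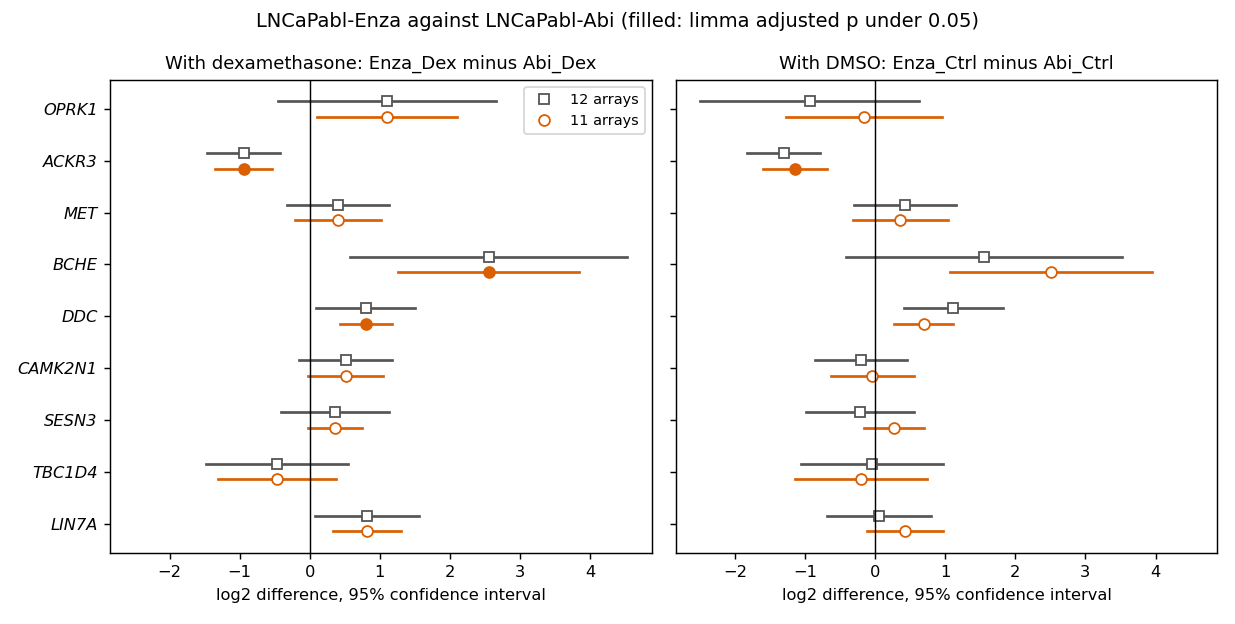
Difference in log2 level between the lines (LNCaPabl-Enza minus LNCaPabl-Abi) for each of the 9 members, with dexamethasone and with DMSO, with 95% intervals from limma, for 12 arrays (grey squares) and without Enza_Ctrl replicate 2 (orange circles). Filled symbols have an adjusted p under 0.05: ACKR3 at −1.14 with DMSO, and ACKR3 at −0.94, DDC at 0.80 and BCHE at 2.56 with dexamethasone, all with 11 arrays.

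A further 9 genes known to be lowered by androgen were measured on the same arrays. They were AKR1C3, HSD17B6, FOLH1, CCN3, UGT2B15, UGT2B17, CDH2, MYC and VEGFC. With dexamethasone 0 of the 9 were called in either line with 12 or 11 arrays (limma), and with both sets 0 had an unadjusted p under 0.05 in LNCaPabl-Abi and 1 in LNCaPabl-Enza. In LNCaPabl-Abi 4 were above 0 and 5 below, with a median of −0.17, and FOLH1, which encodes prostate-specific membrane antigen, had the smallest p (−0.47 ± 0.32, limma adjusted p = 1.00). In LNCaPabl-Enza 3 were above and 6 below, with a median of −0.04, and CCN3, a secreted matricellular protein, had the smallest p (−1.32 ± 0.48, adjusted p = 0.523, and −0.72 ± 0.31, adjusted p = 1.00 with 11 arrays).

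Between the lines, the UDP-glucuronosyltransferases that inactivate androgens passed the test and the other 7 genes did not. UGT2B17 averaged 15.01 ± 0.13 in Enza_Dex and 11.07 ± 1.11 in Abi_Dex, and 14.92 ± 0.29 in Enza_Ctrl and 11.39 ± 1.03 in Abi_Ctrl (SD, n = 3 each). It was higher by 3.94 ± 0.56 between the treated lines (limma adjusted p = 0.0147) and by 3.54 ± 0.56 between the untreated lines (adjusted p = 0.0294). UGT2B15 averaged 15.27 ± 0.12 in Enza_Dex and 11.72 ± 1.16 in Abi_Dex, and 15.21 ± 0.10 in Enza_Ctrl and 12.04 ± 1.05 in Abi_Ctrl. It was higher by 3.55 ± 0.57 between the treated lines (adjusted p = 0.0320), and between the untreated lines by 3.18 ± 0.55 with 11 arrays (adjusted p = 0.0082), where 12 arrays gave 3.16 ± 0.57 (adjusted p = 0.0541). The transcripts of these 2 genes are near-identical in sequence, so probes of one may also read the other and they are not independent. In the treated lines 7 of the 9 were higher and 2 lower in LNCaPabl-Enza, with a median of 0.59 against −0.01 over all genes. In the untreated lines 8 were higher and 1 lower, with a median of 0.74 with 12 arrays and 0.30 with 11.

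**Figure D4:**
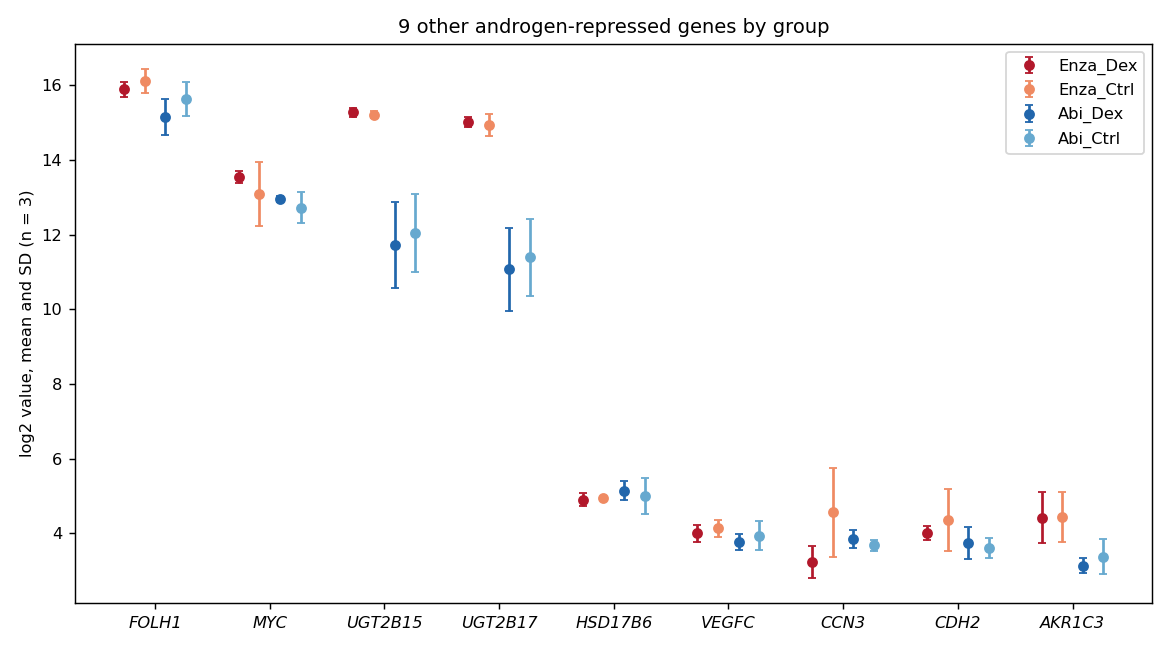
Log2 level of 9 other androgen-repressed genes in each group, as mean ± SD over 3 arrays. UGT2B15 and UGT2B17 average 14.92 to 15.27 in the LNCaPabl-Enza groups and 11.07 to 12.04 in the LNCaPabl-Abi groups, and no gene passes the test with dexamethasone.

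Of 20 receptors, pioneer factors and corepressors listed, 15 were measured, among them NR3C1, FOXA1, HOXB13, RCOR1 and the class I histone deacetylases, while KDM1A is not analysed here. None of the 15 was called by limma in any comparison with 12 or 11 arrays. An unadjusted p under 0.05 was seen with 12 arrays for 0 of them with dexamethasone in either line, 1 between the untreated lines and 2 between the treated lines, and with 11 arrays for 2 in LNCaPabl-Abi, 0 in LNCaPabl-Enza, 3 and 4. Over all 17687 genes the counts with 12 arrays were 241 in LNCaPabl-Abi, 700 in LNCaPabl-Enza, 1999 (untreated lines) and 733 (treated lines). With 11 arrays they were 1254, 530, 1956 and 2039. NR3C1, which encodes the glucocorticoid receptor itself, averaged 7.38 ± 1.44 in Enza_Dex, 8.11 ± 2.01 in Enza_Ctrl, 9.86 ± 0.38 in Abi_Dex and 11.31 ± 0.18 in Abi_Ctrl. It differed by −3.20 ± 0.88 between the untreated lines with 12 arrays (limma adjusted p = 0.261) and by −2.87 ± 0.84 with 11 (adjusted p = 0.140). Between Enza_Dex and Abi_Dex it differed by −2.48 ± 0.88 with 12 arrays (adjusted p = 0.775). With dexamethasone the smallest p values with 12 arrays were those of CTBP1 in LNCaPabl-Abi (0.51 ± 0.25, adjusted p = 1.00) and SIN3A in LNCaPabl-Enza (0.87 ± 0.57, adjusted p = 0.523), both corepressors. Without Enza_Ctrl replicate 2 the difference of SIN3A was 0.03 ± 0.27 (adjusted p = 1.00).

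Among 47 measured ligands, relatives and pathway partners of the members, 0 were called by limma in any comparison with 12 arrays, where 0 had an unadjusted p under 0.05 with dexamethasone in LNCaPabl-Abi, 3 in LNCaPabl-Enza, 4 between the untreated lines and 2 between the treated lines. With 11 arrays these counts were 4, 1, 4 and 3. The counts over all genes are those given for the receptors and corepressors. With 11 arrays 1 of the 47 was called in each line comparison, which does not set the 47 apart. Of all genes, 1.29% were called between the untreated and 2.28% between the treated lines. The called gene was GAB1, the docking adaptor of the MET receptor, which was lower in LNCaPabl-Enza. Its difference was −1.06 ± 0.20 between Enza_Ctrl and Abi_Ctrl (limma adjusted p = 0.0170) and −0.83 ± 0.18 between Enza_Dex and Abi_Dex (adjusted p = 0.0254). With 12 arrays the adjusted p-values of GAB1 were 0.0823 and 0.575. It averaged 10.82 ± 0.11 in Enza_Dex, 10.39 ± 0.53 in Enza_Ctrl, 11.65 ± 0.12 in Abi_Dex and 11.73 ± 0.17 in Abi_Ctrl (SD, n = 3 each). HGF, the ligand of MET, had group means between 3.63 and 5.01, near background like MET itself, and had the smallest p of the 47 with dexamethasone in LNCaPabl-Enza (−1.38 ± 0.57, adjusted p = 0.523). Without Enza_Ctrl replicate 2 the difference of HGF was −0.51 ± 0.23 (adjusted p = 1.00). Of the partners of ACKR3, the ligand CXCL12 had group means between 5.51 and 6.22 and the related receptor CXCR4 between 4.40 and 4.70. In LNCaPabl-Abi 29 of the 47 were above 0 with dexamethasone and 18 below, and in LNCaPabl-Enza 30 and 17. Among these, FOXO3, a transcription factor upstream of sestrins, had the smallest p in LNCaPabl-Abi with 12 arrays (0.46 ± 0.25, adjusted p = 1.00), and MAOA, which degrades the monoamines that DDC makes, with 11 (0.98 ± 0.24, adjusted p = 0.251).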

How the data were processed

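Total RNA was measured on 12 Affymetrix arrays prepared with the WT PLUS kit, per the labels' protocols. A table of log2 values, with a row for each transcript cluster, is what the authors deposited. Affymetrix Expression Console, RMA and limma are named, without versions or order, per the submitters' processing notes. The values ran from 1.66 to 18.6, a wide range for RMA, so folds are on the deposited scale. Of 24351 rows, 17709 had 1 gene symbol in the platform annotation, all matched to RefSeq by Entrez identifier, none had several and 6642 had none. The brightest row per symbol left 17687 genes. Promoters came from RefSeq (GRCh38.p14).

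Groups came from the array titles. The labels call the arrays triplicates without saying that cultures were separate, so p-values measure the spread between arrays, which may be technical. The highest Pearson r between arrays was 0.996. The number of arrays limits the precision.

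A 4-group model without a replicate block was fitted to all genes in R 4.3.3 with limma 3.58.1 (lmFit, eBayes). P-values were Benjamini-Hochberg adjusted over all 17687 genes, and genes with an adjusted p under 0.05 were called. Each call was repeated without Enza_Ctrl replicate 2. The fit was tested on simulated data with independent noise, its spread taken from the arrays without Enza_Ctrl replicate 2. That simulation does not cover the wider spread with this array. Comparisons that share arrays (both dexamethasone responses with their line comparisons) are not independent. The members and gene lists were chosen with earlier results of these data known. All measured members are named in every dexamethasone and line comparison, and of the other lists the called genes (up to 4) or, with none called, the gene with the smallest p. Direct partners, androgen-induced genes and the cell type markers KRT8 and EPCAM are given for context. Alternatives were other array sets, a replicate block, array weights, quantile normalization anew, fits of only the groups compared and the dimmest 25% of genes left out. Promoter sequences of OPRK1, ACKR3, CAMK2N1 and TBC1D4 and protein sequences were not used here.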

Additional observations from a re-analysis of the deposited data

How the results depend on the processing

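Of 1309 alternatives run for the 45 member and comparison results, 1168 kept the direction, 141 reversed it, and 50 passed the threshold where the 12-array fit, which called no member, did not. Leaving out an array outside the groups compared cannot change their difference. Many of the kept directions were therefore fixed in advance, and the count is no measure of robustness. The 9 members had 1 row each, so averaging rows was not applicable, and MET was not in the fit without the dimmest 25% of genes. The cause of each change below was not tested. Members called between Enza_Ctrl and Abi_Ctrl numbered 1 without the dimmest 25% (ACKR3), 1 with array weights and 2 with a replicate block and no Enza_Ctrl array 2, and 0 to 2 with arrays left out. Between Enza_Dex and Abi_Dex they numbered 3 with that block, 4 with array weights, 3 in a fit of only those groups, and 0 to 3 with arrays left out. Calls over all genes moved with the setting too, between these groups from 49 with 12 arrays to 540 with that block. The counts of members by setting are therefore not a result about the members.

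The labels do not say whether replicate numbers pair the samples. Deviations from group means correlated at −0.039 to 0.303 for the 18 same-number pairs and −0.196 to 0.098 for the 36 others. The ranges overlapped, but both the lowest and the highest value were higher for the same-number pairs. Whether a batch goes with the replicate numbers was not tested, and the main fit takes no account of one. With the replicate block and 12 arrays no member was called, and calls over all genes were 4 and 0 with dexamethasone in LNCaPabl-Abi and LNCaPabl-Enza, 64 between the untreated and 56 between the treated lines. With the block and no Enza_Ctrl array 2 they were 39, 0, 303 and 540, and 1 for the difference between the responses.

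With dexamethasone in LNCaPabl-Enza the direction reversed in these settings. With the replicate block and no Enza_Ctrl array 2, BCHE stood at −0.14, DDC at 0.03, CAMK2N1 at −0.04 and TBC1D4 at 0.04. Array weights gave −0.27 for BCHE and −0.02 for CAMK2N1, and quantile normalization −0.04 for ACKR3. A fit of only those groups without that array gave −0.03 for OPRK1, −0.41 for BCHE, −0.02 for ACKR3 and −0.05 for CAMK2N1. With 1 or 2 arrays left out the range was −0.13 to 1.17 for OPRK1, −1.62 to 1.64 for BCHE, −0.65 to 0.04 for DDC, −0.27 to 0.35 for ACKR3, −0.22 to 0.28 for CAMK2N1, −0.63 to 0.48 for TBC1D4 and −0.74 to 0.08 for MET. In LNCaPabl-Abi it was −0.79 to 0.13 for BCHE, −0.09 to 0.16 for SESN3 and −0.22 to 0.42 for TBC1D4.

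For the difference between the responses, the block without that array gave 0.15 for DDC and 0.01 for MET, array weights 0.11 and 0.07 for the same genes, and quantile normalization 0.29 for MET. The left-out ranges were −0.54 to 0.21 for DDC, −0.36 to 0.45 for MET, −1.17 to 2.09 for BCHE, −0.06 to 0.57 for ACKR3, −0.07 to 0.86 for SESN3 and −0.82 to 0.29 for TBC1D4. Between Enza_Ctrl and Abi_Ctrl, SESN3 stood at 0.23 with the block, 0.16 with quantile normalization, 0.28 with array weights and 0.27 in the fit of only those groups without that array. Array weights gave 0.05 for CAMK2N1, and quantile normalization 0.42 for TBC1D4 and 0 for LIN7A. The left-out ranges there were −0.44 to 0.12 for CAMK2N1, −0.50 to 0.36 for SESN3, −0.76 to 0.35 for TBC1D4, −0.18 to 0.53 for LIN7A, −1.49 to 0.40 for OPRK1 and −0.05 to 0.77 for MET.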
